A study of Caenorhabditis elegans with 2 samples.

Results

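The regions described here are the 282 autosomal distal intergenic regions bound in a ChIP-seq experiment on the transcription factor LSY-2 in Caenorhabditis elegans. Each passed the authors' IDR threshold (irreproducible discovery rate, which scores how alike a region ranks in the lists compared, such as those of replicates). From the regions that passed, they were chosen by position: the summit lay on an autosome, outside every protein-coding gene and more than 1000 bp upstream of any protein-coding gene's 5′ end. They make up 14.98% (95% Wilson interval 13.4 to 16.7%) of the 1883 autosomal regions in the thresholded list, which holds 299 more on the X chromosome. Of the other 1601 autosomal regions, 485 had a summit within 1000 bp upstream of genes on both strands, 749 upstream of a gene on a single strand, and 367 inside a gene and outside such windows.

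The material was whole L2 larvae, males and females pooled, of strain OP240. This strain carries the unc-119(ed3) allele on chromosome III and the transgene wgIs240, from which LSY-2 is expressed with an eGFP tag; signal comes from whole animals and cannot be assigned to a tissue. There was 1 group, with 2 biological replicates, and no untagged or untreated group was analysed here, nor the control alignment. The depth of the libraries is unknown, because the lists hold no read counts.

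LSY-2 is a C2H2 zinc finger protein, known for making the left and right ASE taste neurons differ from each other. The worm genome is compact: most regulatory sequence sits directly upstream of genes, often between a pair of divergently transcribed ones, and sequence farther from any gene holds enhancers, unannotated promoters, repeats, pseudogenes and many small noncoding RNA genes. Transfer RNA, small nucleolar RNA (snoRNA) and spliced leader RNA genes are short units with promoters of their own, and spliced leader RNAs donate the leader that is joined to the 5′ end of many worm messages.

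Sequence around 5 of the summits shows the features that recur below. Each window runs from 50 bases before to 50 bases after the summit on the plus strand of ce11, from the RefSeq copy of the assembly. Capitals mark the GA repeat GAGAGA, the longer worm promoter motif GAGACGC and the 6-mer ACCGTA, each as written or as its reverse complement. A match to the GA repeat can overlap a match to the longer motif. The first pair of windows is shown because of signal, and each held ACCGTA. These regions had the highest signal among those without a noncoding RNA gene or pseudogene within 200 bp or a 3′ end within 500 bp. The window from the spliced leader gene sls-2.2 ends in the first 16 bases of that gene. The window near T04C4.3 shows several GA repeats in a single region, and the tRNA window begins with 29 bases of the tRNA-Arg gene F56F3.t1, which is read from the minus strand.
between Y105C5A.1 and pqn-76, chrIV:15570978-15571078: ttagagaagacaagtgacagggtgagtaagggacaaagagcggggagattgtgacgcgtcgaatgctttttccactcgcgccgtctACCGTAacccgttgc
upstream of trmt-10C.2, chrIII:6344890-6344990: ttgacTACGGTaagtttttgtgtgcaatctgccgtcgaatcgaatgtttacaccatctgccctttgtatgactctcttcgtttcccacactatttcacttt
sls-2.2, chrII:5543513-5543613: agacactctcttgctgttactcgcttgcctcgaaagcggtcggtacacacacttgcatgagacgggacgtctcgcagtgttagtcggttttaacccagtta
between T04C4.3 and fnip-2, chrIV:2219605-2219705: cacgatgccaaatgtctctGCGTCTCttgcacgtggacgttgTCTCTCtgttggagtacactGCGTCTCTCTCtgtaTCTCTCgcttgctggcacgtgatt
F56F3.t1, chrIII:4470930-4471030: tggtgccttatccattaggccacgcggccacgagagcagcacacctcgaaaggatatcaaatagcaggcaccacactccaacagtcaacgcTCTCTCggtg

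Distal intergenic sequence was occupied less densely than sequence near genes. The 282 regions lay in 19.4 Mb of autosomal sequence that satisfies the rule, or 14.5 regions per Mb, against 25.3 per Mb over the rest of the autosomes. That rest is itself uneven, with 352 regions per Mb in windows upstream of genes on both strands, 52.4 per Mb upstream on a single strand and 7.73 per Mb inside genes, so distal sequence held more regions per Mb than gene bodies. Before thresholding, the authors' list for both replicates together held 5231 distal autosomal regions, of which 5.39% passed (4.81 to 6.04%), against 7.67% of all listed autosomal regions. When each replicate was taken alone and its regions of highest signal were kept, as many as in the thresholded list, 5.52% of the distal regions were kept in replicate 1, against 7.64% of all its autosomal regions, and 5.77% in replicate 2, against 7.7%. These shares describe 1 experiment: with 1 group of 2 replicates no test between samples is possible, and the intervals cover only the number of regions.

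The density differed between chromosomes. It was 26.5 regions per Mb of distal sequence on chromosome III (74 regions) and 21.3 on chromosome I (60 regions), but 12.7 on chromosome IV (64 regions), 11.7 on chromosome II (42 regions) and 8.13 on chromosome V (42 regions). Thresholded regions at all positions also differed, with 457 on chromosome III, 450 on I, 358 on II, 339 on IV and 279 on V. As a share of these, distal regions were 18.9% on chromosome IV, 16.2% on III, 15.1% on V, 13.3% on I and 11.7% on II. On each of the 5 autosomes the middle part, when the chromosome is cut into 3 equal parts, held more distal regions per Mb of distal sequence than the outer ones. The values were 30.6 and 24.3 on chromosome III and 9.42 and 7.55 on chromosome V. The X chromosome, which is not part of the set, had 104 of 299 regions at distal positions (34.8%), or 18.2 per Mb of distal sequence.

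Signal at the distal regions was lower than at regions upstream of genes. Its median was 69.2 (64.6 to 74.4, an order-statistic interval over regions; range 45.9 to 884) in the authors' signal unit, against 89.8 (85.4 to 94.5) over the other autosomal regions, 116 upstream of genes on both strands and 70.0 inside genes. In replicate 1 the median was 40.9, against 52.6 for the other regions, and in replicate 2 it was 30.5, against 37.8; the scales of the replicates were not matched. Split at the quartiles of all autosomal signal, 35.8% of the distal regions fell in the lowest group, against 23.1% of the others, and 11.3% (32 regions) in the highest, against 27.4%. They held 8.22% of the summed autosomal signal and 11 of the 177 autosomal regions among the 200 strongest of the whole list.

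**Figure D1:**
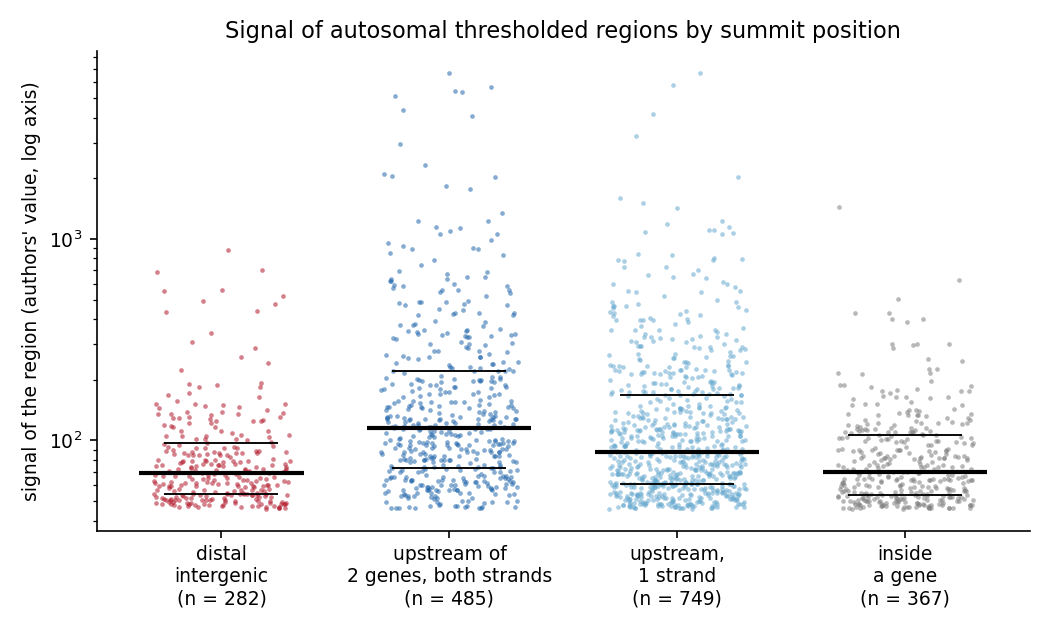
Signal of each autosomal thresholded region (points, log axis) by the position of its summit, with the median (thick line) and quartiles (thin lines). The distal intergenic regions reach 884, with a median of 69.2, close to the median of 70.0 for regions inside genes and below the 116 for regions upstream of genes on both strands.

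The replicates were compared by overlap and by signal. Of the distal regions, 197 (69.9%, 64.3 to 74.9%) overlapped, in both replicates, one of the regions of highest signal of that replicate, as many as in the thresholded list, against 77.4% of all autosomal regions, 78.7% of the others and 66.8% of those inside genes. Within groups split at the quartiles of signal the shares lay close together: 27.7% of distal and 27.03% of other regions in the lowest group, 86.0% and 82.9% in the next, 100% and 98.8% in the one after, and 100% of both in the highest. The threshold may itself select on agreement between replicates, and the groups are made from signal of both together. High shares in the upper groups therefore follow from how the groups were formed. Across the 280 distal regions with a summit listed in both replicates, Spearman's rho between the replicates was 0.53 and Pearson's r of log10 signal 0.72, against 0.81 and 0.91 across 1578 other regions, and 0.62 and 0.73 across those inside genes alone. These are descriptions over regions of the same 2 libraries, and the distal regions span a narrower range of signal. The ratio of replicate 1 to replicate 2 had a median of 0.50 on the log2 scale with an SD of 0.65 across distal regions, against 0.51 with an SD of 0.53 across the others.

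**Figure D2:**
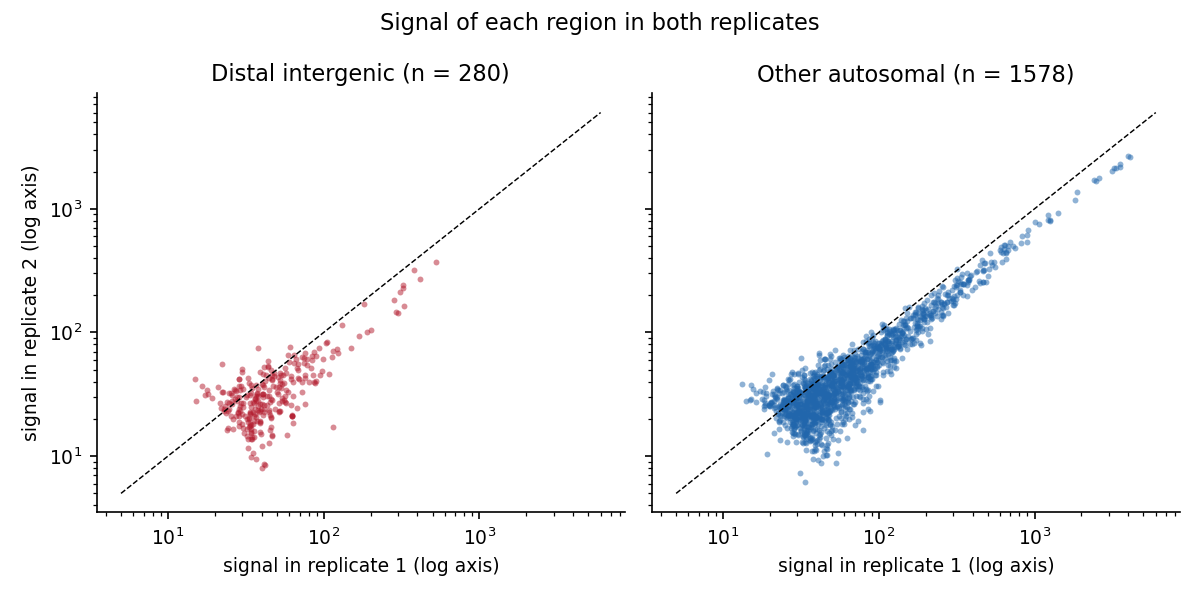
Signal of each region in replicate 1 (x axis) and replicate 2 (y axis), both log axes, for 280 distal intergenic regions (left) and 1578 other autosomal regions (right); the dashed line marks equal values. The distal cloud is shorter, and Spearman's rho is 0.53 there and 0.81 at right.

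The strongest distal regions were strong in both replicates, and several carried ACCGTA. The highest, on chromosome I with its summit at 2639849, had a signal of 884 (525 in replicate 1 and 371 in replicate 2) and ranked 48 in the whole list. It lay 430 bp past the 3′ end of F40E3.3 and 2875 bp upstream of mage-1, a MAGE family gene. The next, in the gap of 14658 bp between Y105C5A.1 and pqn-76 on chromosome IV, had 702 (380 and 321 in the replicates) and lay 6601 bp from the nearest protein-coding gene. No annotated noncoding gene lay within 200 bp of either, although the one at F40E3.3 is partly repeated sequence, described further down.

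Upstream of trmt-10C.2, which encodes a tRNA methyltransferase relative, the region had a signal of 559 (323 and 240 in the replicates) at 1341 bp from the gene. A region 1846 bp upstream of snx-6, a sorting nexin gene, had 551 (324 and 230). Between the 3′ ends of nlp-40, a neuropeptide-like protein gene, and rcor-1, a CoREST relative, a convergent pair 646 bp apart at the left end of chromosome I, the signal was 519 (307 and 213). All 10 distal regions of highest signal were among the strongest 187 regions of each replicate, and the region at F40E3.3 was the strongest distal region in both.

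The remaining 5 of the top 10 lay at annotated elements. Of these, 3 stood beside K08F11.1 on chromosome IV, with signals of 687 (414 in replicate 1 and 269 in replicate 2), 490 (327 and 164) and 441 (299 and 144), the first and last of them at the pseudogene K08F11.6. The region at sls-2.2 had 477 (284 and 184), and that in the long noncoding RNA gene linc-128 on chromosome V had 433 (293 and 146). Replicate 1 was the higher of the replicates at all 5, as it was at most regions.

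Noncoding RNA genes lay near a larger share of the distal regions than of distal regions that were listed but fell below the threshold. A noncoding RNA gene of any class lay within 200 bp of 71 summits (25.2%, 20.5 to 30.6%), against 18.7% of other autosomal regions and 16.4% of the 4949 distal regions that did not pass. Without 21U-RNA (piRNA) genes and unclassified noncoding RNA genes, which are short and very numerous, the numbers were 38 (13.5%, 9.98 to 18.0%), against 8.81% and 2.97%. No snRNA, rRNA or antisense RNA gene lay within that distance of a distal summit.

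**Figure D3:**
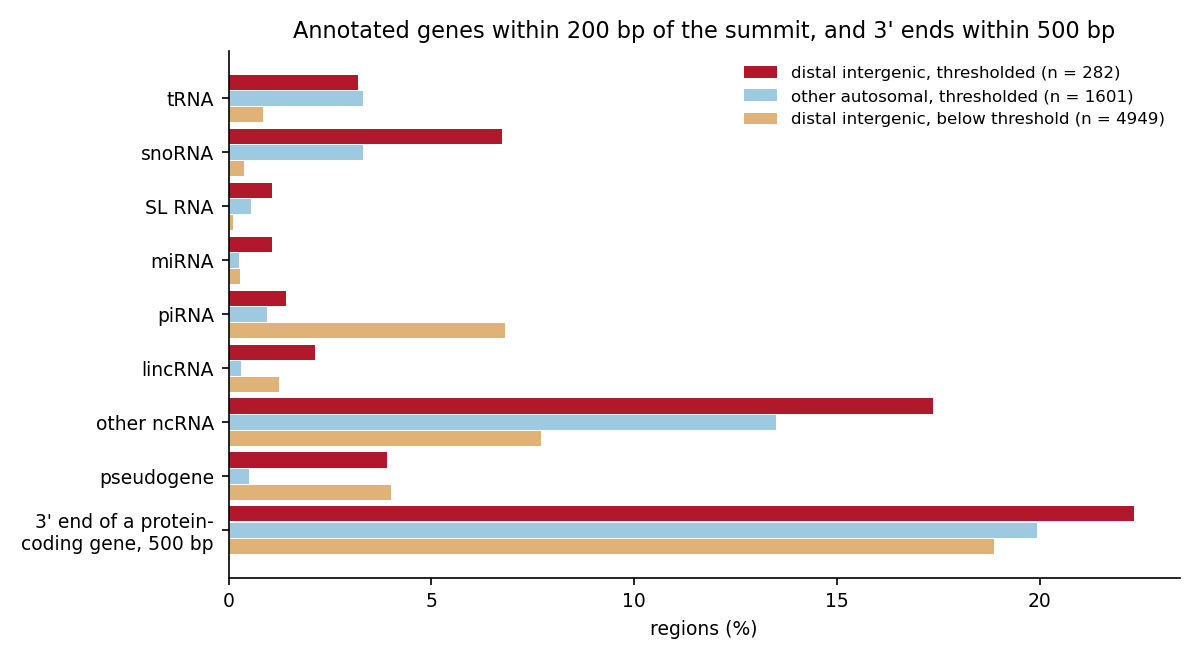
Share of regions (%) with an annotated gene of each class within 200 bp of the summit, or with a protein-coding gene's 3′ end at most 500 bp upstream of it, for 282 distal intergenic regions, 1601 other autosomal regions and 4949 distal regions below the threshold. snoRNA genes stand at 6.74%, 3.31% and 0.384%, and piRNA genes at 1.42%, 0.937% and 6.83%.

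Genes for snoRNAs, which guide the chemical modification of other RNAs, were the largest of the classified groups, at 19 regions (6.74%, 4.36 to 10.3%), against 3.31% of other autosomal regions and 0.384% of distal regions below the threshold. The summit lay upstream of the snoRNA gene's 5′ end at 15 of the 19, at a median of 46 bp (6 to 87 bp). The strongest was 50 bp upstream of T26A8.6 on chromosome IV, between tmem-231 and T26A8.4, with a signal of 183 (114 in replicate 1 and 70.2 in replicate 2). Next came F25H2.15 on chromosome I, beside the ubiquitin-conjugating enzyme gene ubc-25, with 106 (75.9 and 26.4), and ZK643.9 on chromosome III, beside arrd-15, with 105 (62.0 and 42.0). GAGAGA was within 50 bp of the summit at 1 of the 19, against 127 of all 282.

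tRNA genes lay near 9 regions (3.19%), against 3.31% of other autosomal regions and 0.849% of distal regions below the threshold. At 8 of the 9 the summit was upstream of the tRNA gene, at a median of 23 bp. These regions were weaker than the snoRNA ones, with a median signal of 67.4, against 84.2 at the snoRNA genes. The strongest were the 3 at tRNA-Arg genes: F56F3.t1 on chromosome III had 102 (54.9 in replicate 1 and 45.5 in replicate 2), F35H8.t1 on chromosome II had 75.7 (46.6 and 28.6) and C15C6.t1 on chromosome I had 74.9 (34.4 and 37.8). The regions at F56F3.t1 and F35H8.t1 share part of their sequence, described further down. The tRNA B box motif GTTCGANNC, part of the internal promoter of tRNA genes, was within 50 bp of 7 distal summits (2.48%), against 1.19% of other autosomal regions. These were not all at tRNA genes. Some of them, including the strongest, had a snoRNA gene and no tRNA gene within 200 bp. The region at F56F3.t1 did not have the motif within 50 bp of its summit.

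Spliced leader genes of the SL2 type, whose RNAs are joined to downstream genes of operons, were near 3 regions (1.06%), against 0.562% of other autosomal regions and 0.101% of distal regions below the threshold. A pair of overlapping regions flanked sls-2.2 on chromosome II, with summits 35 bp upstream of its start and 64 bp past its end and signals of 477 and 341. The region past the end had 182 in replicate 1 and 169 in replicate 2. Near sls-2.9 on chromosome I the signal was 54.4 (37.3 and 19.2), and a tRNA-Lys gene lay on the other side of that summit, so the gene it belongs to cannot be told apart by position.

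Other transcribed elements were rarer. MicroRNA genes lay near 3 regions (1.06%), against 0.25% of other autosomal regions and 0.283% of distal regions below the threshold. They were at cel-mir-53 with a signal of 91.7 (59.4 in replicate 1 and 33.1 in replicate 2), at cel-mir-8209 with 87.8 (46.5 and 41.6) and at cel-mir-52 with 61.2 (52.7 and 23.2). mir-52 and mir-53 belong to the mir-51 family of worm microRNAs. Long noncoding RNA genes lay near 6 regions (2.13%), against 0.312% of other autosomal regions and 1.23% of distal regions below the threshold; after linc-128 came linc-91 with 116 (73.1 and 40.1). For piRNA genes the shares lay the other way: 4 distal regions (1.42%) had one, against 6.83% of distal regions below the threshold.

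Pseudogenes lay near 11 regions (3.9%, 2.19 to 6.85%), close to the 4.0% of distal regions below the threshold and above the 0.50% of other autosomal regions, most of which sit at intact genes. Their median signal was 131, against 69.2 for all distal regions. The regions at K08F11.6 and D1065.2, which count toward this median, belong to families with shared sequence, described further down, whose signals cannot be told apart. In replicate 1 the median at pseudogenes was 85.5, and in replicate 2 it was 40.0. Apart from K08F11.6, the strongest was 192 bp upstream of R12C12.8 on chromosome II, with 152 (89.6 and 64.1).

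Gene 3′ ends lay near the distal regions at a share close to that of distal sequence below the threshold. A protein-coding gene ended at most 500 bp before the summit at 63 regions (22.3%, 17.9 to 27.6%), and the share was 18.9% of distal regions below the threshold. By the orientation of the flanking genes, 168 regions lay between genes on the same strand (59.6%), 84 between divergent genes (29.8%) and 29 between convergent ones (10.3%), against 56.7%, 31.0% and 12.3% below the threshold. One more, at the snoRNA gene Y74C9A.6, lay outside the first protein-coding gene of chromosome I.

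Nothing of these kinds was annotated near 163 distal regions. At these (57.8%, 52.0 to 63.4%) there was neither a noncoding RNA gene nor a pseudogene within 200 bp, nor a 3′ end within 500 bp, against 63.6% of other autosomal regions and 63.8% of distal regions below the threshold. Their median signal was 65.8. Distance from the nearest 5′ end for which the summit is upstream had a median of 2652 bp (1008 to 31460 bp). It was under 2000 bp at 103 regions, from 2000 to 5000 bp at 122 and over 5000 bp at 57, and the medians of signal in these groups were 71.7, 65.9 and 73.4, with no order by distance. The 3 regions farthest from any gene were on chromosome IV: 13441 bp from irld-18 with a signal of 48.4 (15.1 in replicate 1 and 27.8 in replicate 2), 10852 bp from srab-24 with 55.4 (29.0 and 23.2), and 9893 bp from dmd-6 with 63.2 (35.6 and 26.7).

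The limit of 1000 bp did not fall in a gap of the data. Just inside the set were regions 1008 bp upstream of ech-2 (signal 69.4), 1012 bp upstream of dhs-8 (102) and 1012 bp upstream of egl-3 (119), the last encoding a proprotein convertase that processes neuropeptides. Just outside it were regions 997 bp upstream of F14F9.4 (57.6), 964 bp upstream of ZC21.10 (172) and 949 bp upstream of cnt-1 (49.7).

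GA repeats were the most common of the motifs searched at the distal regions. GAGAGA, on either strand, was within 50 bp of the summit at 127 regions (45.0%, 39.3 to 50.9%), against 347 of the other 1601 autosomal regions (21.7%, 19.7 to 23.8%). The share was 13.8% upstream of genes on both strands, 21.1% upstream on a single strand, 33.2% inside genes, 10.9% at distal regions below the threshold and 9.88% over all listed autosomal regions. In flanking windows of equal width, 300 bp away on both sides of the distal summits, it was 7.27%. Among all 2080 6-mers, counted with their reverse complements, GAGAGA had the largest excess over those flanks. This rank was not particular to the distal regions. GAGAGA also ranked 1 inside genes, at 33.2% against 8.45% in the flanks there. Its rank was 5 upstream of genes on a single strand and 60 upstream on both strands. GAGAGA was on the list of motifs searched, which was made with earlier results of these data known. The list and the 6-mer counts are therefore not independent. ACCGTA was added after the values were seen.

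The GA repeat did not go with signal in the distal regions. It was present in 44.6%, 43.0%, 47.6% and 46.9% of them from the lowest quartile group of signal to the highest, whereas in the other autosomal regions the shares were 25.1%, 23.9%, 23.1% and 15.5%. Regions inside genes alone showed no such fall, with 27.4%, 37.5%, 34.0% and 40.5%. Runs of alternating G and A of at least 10 bases were found at 33 distal regions (11.7%), against 2.50% of the others, and the longest at a distal summit was 41 bases. The longer motif GAGACGC, which has been described at worm promoters, was at 50 distal regions (17.7%, 13.7 to 22.6%), against 10.9% of other autosomal regions, and at 2.44% of distal regions below the threshold. Here it was at 8.25% of regions upstream of genes on both strands, 11.5% upstream on a single strand and 13.1% inside genes. Its share was 11.9% in the lowest quartile group of the distal regions and 28.1% in the highest, against 8.89% and 23.8% inside genes and 9.46% and 11.6% over all other autosomal regions. The window near T04C4.3 printed above has both motifs and a signal of 289 (191 in replicate 1 and 99.98 in replicate 2).

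GA repeats varied with what lay near. They were at 87 of the 163 distal regions with nothing annotated nearby (53.4%), at 14 of the 63 near a 3′ end (22.2%) and at 25 of the 71 near a noncoding RNA gene (35.2%). By orientation they were at 48.8% of regions between genes on the same strand, 45.2% between divergent genes and 24.1% between convergent ones. Beyond 5000 bp from a 5′ end the share was 35.1%, against 46.6% under 2000 bp and 48.4% from 2000 to 5000 bp.

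**Figure D4:**
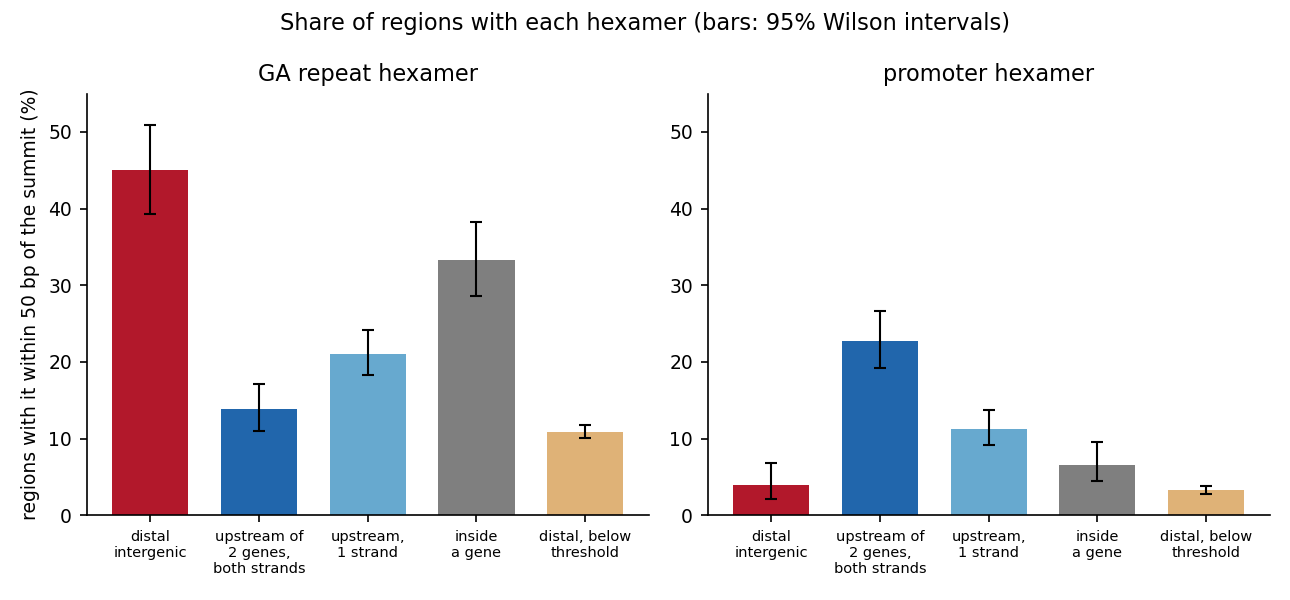
Share of regions (%) with GAGAGA (left, the GA repeat hexamer) or ACCGTA (right, the promoter hexamer) within 50 bp of the summit, by summit position, with 95% Wilson intervals. The distal intergenic regions are highest for the GA repeat, at 45.0%, and at 3.9% for the promoter hexamer, where regions upstream of genes on both strands reach 22.7%.

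ACCGTA showed the opposite arrangement. It was within 50 bp of the summit at 11 distal regions (3.9%, 2.19 to 6.85%), against 218 of the other autosomal regions (13.6%, 12.02 to 15.4%) and 110 of those upstream of genes on both strands (22.7%). At the distal regions its share lay close to that in their own flanks, 3.72%, and to that of distal regions below the threshold, 3.27%. Among the 2080 6-mers ACCGTA ranked 1068 by excess over the flanks in the distal regions and 2 upstream of genes on both strands. It was added after the values were seen, so this contrast describes a chosen 6-mer and tests nothing. The 6-mer ranked 1 upstream of genes on both strands, ACGCGC, did have an excess at the distal regions. It was at 7.80% of them, against 1.42% in their flanks (rank 58), and at 21.9% upstream of genes on both strands.

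The few distal regions with ACCGTA ranged from weak to strong. Their median signal was 191, against 67.4 for those without it, and 5 of the 10 distal regions of highest signal had it. In the highest quartile group of signal ACCGTA was at 6 of 32 distal regions (18.8%), against 34.4% of other autosomal regions, and in the lowest group at 1 distal region (0.990%), against 5.95%. Besides the 5 strong ones at F40E3.3, Y105C5A.1, trmt-10C.2, snx-6 and K08F11.1, the regions with it included one 2908 bp upstream of gldi-3 with 141 (75.9 in replicate 1 and 68.1 in replicate 2) and one between lig-4 and the Hox gene lin-39 with 54.0 (33.5 and 18.2). Of the 11, 3 had a signal of 54.0, 74.96 or 84.9, below the autosomal median of 85.1, and 4 belonged to families of regions with shared sequence, described further down. GAGAGA and ACCGTA occurred together at 1 distal region, the one at F40E3.3, and 145 had neither.

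Around the summits the motifs were arranged in different ways. At the distal regions GAGAGA was spread broadly: in 25 bp bins it was at 17.4% of regions at the summit, 11.0% at 50 bp to the left of it and 18.4% at 50 bp to the right. It was rarer but also broadly spread at regions upstream of genes on both strands. There it was at 4.12% in the central bin and 3.71% in each of the bins at 50 bp. At regions upstream of genes on both strands ACCGTA was concentrated at the summit, at 9.69% in the central bin, 2.47% in the bin at 50 bp to the left and 1.24% in that to the right. At the distal regions ACCGTA was at 1.06% in the central bin (3 regions), 1.06% at 50 bp to the left (3) and 1.42% to the right (4). These counts show no peak but are too small to tell whether there is one.

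**Figure D5:**
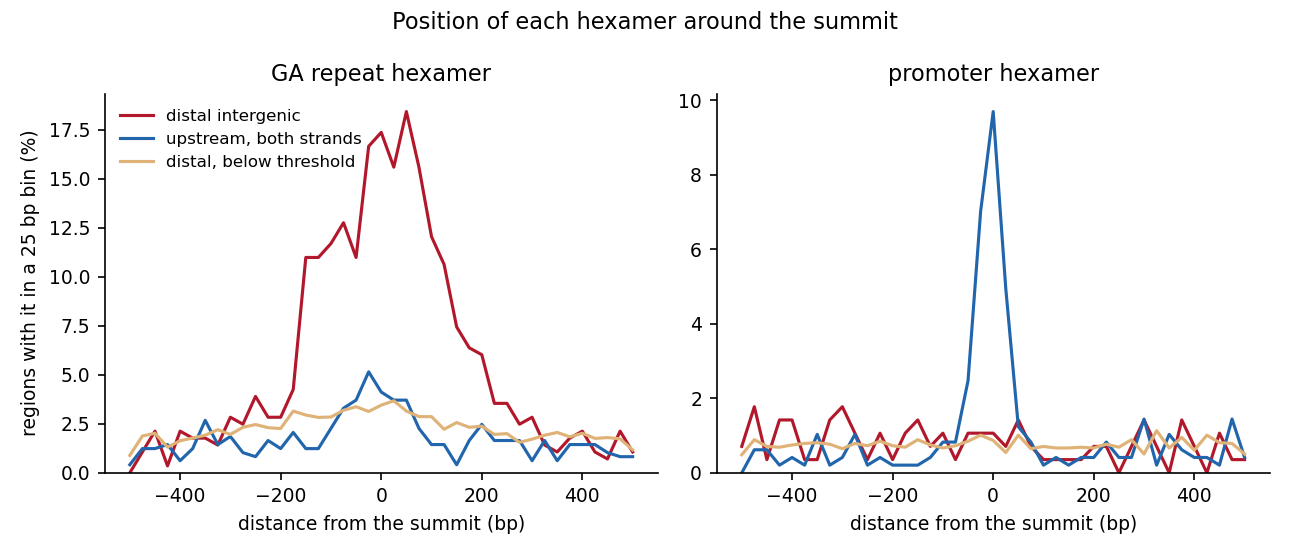
Share of regions (%) with GAGAGA (left) or ACCGTA (right) in 25 bp bins by distance from the summit (bp), for distal intergenic regions, regions upstream of genes on both strands, and distal regions below the threshold. GAGAGA stands at 17.4% in the central bin of the distal regions, and ACCGTA at 9.69% in that of the regions upstream on both strands and 1.06% in that of the distal ones.

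The other motifs searched were each at few distal summits. Within 50 bp of the summit, the TATA box TATAAA was at 2.84% of distal regions, against 4.68% of other autosomal regions and 11.9% of distal regions below the threshold. A run of 8 T was at 3.9%, against 5.18% and 15.03%. The E box CACGTG was at 3.19%, against 2.56% of other autosomal regions and 1.52% of distal regions below the threshold. The GC box GGGCGG was at 4.61%, against 6.06% and 2.55%, and the tRNA A box was at 1 distal region. Median GC content of these windows was 46.5% in both groups.

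Some of the distal regions are copies of each other. In 38 (13.5%) fewer than 90% of the 30-base words of the region were unique in the genome, against 8.43% of other autosomal regions and 16.9% of those inside genes. Unique throughout were 217 (77.0%), against 86.8% and 74.4%. A family of 7 regions on chromosomes I, IV and V, joined by at least 10 shared words, included the strongest region at F40E3.3 (signal 884), those at the pseudogenes K08F11.6 (687) and D1065.2 (105 and 58.7), and one 4119 bp upstream of K08F11.1 (147). The regions of this family were 22.4 to 68.9% unique, and 5 of the 7 held GAGAGA. Regions at tRNA genes also shared words. Those at the tRNA-Arg genes F56F3.t1 and F35H8.t1 shared 48 (14.3% of each). Those at the tRNA-Lys genes M01E5.t1, near sls-2.9, and B0350.t1 shared 47 (14.0% of each). The sources used here do not say how reads that match several copies were placed, so the signals of such copies cannot be told apart.

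Neighbouring regions also shared signal or sequence. There were 7 overlapping pairs, which leaves 275 separate loci, and 37 regions lay in 16 clusters within which summits were at most 5000 bp apart. The largest cluster had 5 regions over 7527 bp beside K08F11.1. Soft-masked, repeat-like bases made up a median of 25.3% of a distal region, against 34.2% of other autosomal regions. The median was 42.0% upstream of genes on both strands, 34.6% upstream on a single strand and 21.4% inside genes. The distal set was thus less masked than regions upstream of genes and slightly more masked than those inside genes.

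Genes whose 5′ end was nearest to a distal summit, on either side, were sorted by symbol into lists of families. Nuclear hormone receptor genes were nearest to 6 regions (2.13%), against 0.312% of other autosomal regions and 1.96% of distal regions below the threshold. The strongest was 2562 bp upstream of nhr-88 with 307 (200.4 in replicate 1 and 105 in replicate 2), and nhr-20, nhr-258, nhr-10, nhr-61 and nhr-34 had 93.1, 59.3, 59.2, 55.1 and 52.3. Homeobox genes of the ceh series were nearest to 3 regions (1.06%), against 0.312% of other autosomal regions and 0.566% of distal regions below the threshold. They were ceh-48 with 87.0 (46.9 and 42.4), ceh-43 with 61.7 (44.6 and 12.8) and the Hox gene ceh-13, 2608 bp away in the gap shared with lin-39, with 50.4 (34.1 and 13.7). GAGAGA was within 50 bp of the summit at ceh-43 and ceh-13 and not at ceh-48.

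Ribosomal protein genes were nearest to 4 distal regions (1.42%), against 2.56% of other autosomal regions and 0.525% of distal regions below the threshold. Chemoreceptor genes were nearest to 1 distal region (0.355%), against 0.50% of other autosomal regions and 2.55% of distal regions below the threshold. Collagen, F-box and C-type lectin genes were nearest to 1 distal region each (0.355%), against 0.50%, 0.312% and 0.0625% of other autosomal regions and 0.667%, 0.465% and 0.323% of distal regions below the threshold. Histone and bHLH genes were nearest to none, against 0.312% of other autosomal regions for each.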

How the data were processed

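Autosomal distal intergenic regions of eGFP-LSY-2 were taken from lists of ChIP-seq regions in 2 biological replicates of 1 group, with the labels' own numbers. Nothing in the labels says more of how the replicates were grown, so differences between them may be technical. Regions were called for each replicate and for both together, 30000 each, and thresholded by IDR, per the names of the deposited lists. The aligner and caller were not given in the sources used here; signal is the authors' deposited value for each region, and how it relates to the control is not stated there either; here it ranks and describes regions. The ce10 lists were not used here.

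Summits were placed against Ensembl release 115 genes on WBcel235, the assembly of ce11, and motifs were counted on both strands within 50 bp of the summit, in the RefSeq sequence. A replicate's signal at a region is that of its strongest listed region with its summit inside. Intervals of shares are Wilson intervals at 95% and cover counting of regions only; depth is unknown. No test was made, since 1 group allows none between samples and regions of the same libraries are not replicates. The members, lists and motifs were chosen with earlier results of these data known. Regions named are the 10 of highest signal, the 3 of highest signal in each class of nearby gene, the 3 nearest the limit of 1000 bp on each side and the 3 farthest from a gene; the regions at D1065.2, gldi-3, lin-39, T04C4.3 and Y74C9A.6, and those of the family lists, were named after their values were seen. Alternatives were other upstream windows, distances, overlaps, motif windows and each replicate's own list. Python 3.11.15 with numpy 2.4.6, pandas 2.3.3 and scipy 1.17.1 was used, and all 3 checks on simulated data passed.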

Additional observations from a re-analysis of the deposited data

How the results depend on the processing

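No paired analysis was possible because the study has 1 group. Under other settings, 83 values stayed within the interval of the reported value, or within 1.5 times for a count. These still include the B box at 4.96% within 100 bp, pseudogenes at 6.15% with an upstream window of 2000 bp and 397 regions with one of 500 bp. No difference changed sign. The others moved further. With the upstream window at 2000 bp the distal regions numbered 179 (9.51% of autosomal regions), and at 500 bp they made up 21.1%, with 6.20% of listed ones passing. In the upper 50% of the list by signal there were 99 (10.2%), with a median signal of 122, 100% overlap with both replicates, 29.3% near a 3′ end, 7.07% near a pseudogene and 9.09% with ACCGTA. Each replicate's own list gave a median signal of 29.8 to 40.4. A distance of 500 bp raised the share near noncoding RNA genes to 33.7% and near pseudogenes to 8.16%; without piRNA and unclassified genes that noncoding share was 13.5%. The share near 3′ ends was 8.87% within 200 bp, 30.1% within 1000 bp, and 15.4% where whole regions had to lie outside genes. GAGAGA was at 59.9% within 100 bp and 69.9% in whole regions (31.4 percentage points above other regions), ACCGTA at 9.57% and the tRNA B box at 7.45% in whole regions. Soft-masked bases were a median 16.8% of the window within 50 bp of the summit. The causes were not tested. GAGAGA and ACCGTA alternatives were chosen after seeing the data. Unknown depth limits what can be said of weak regions.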
